A study of Mus musculus with 17 samples.

Results

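Stk25 encodes a serine/threonine kinase of the germinal center kinase III (GCKIII) family. It was followed here with its relatives Stk24 and Stk26, the adaptor Pdcd10, the striatins Strn, Strn3 and Strn4, and Mob4, 8 of the 55335 genes counted, in bulk RNA sequencing of sorted mouse bone stromal cells. The genes were chosen by name: Stk25 was selected on its low level in 1013/1013 OPCs, and the others were taken because their products act with it. The OPC values of Stk25 are thus a description, and its comparisons that hold WT or 1013/1013 OPC libraries carry no test. The STRIPAK complex (striatin-interacting phosphatase and kinase) joins these products. Striatins are its scaffold and carry protein phosphatase 2A, Pdcd10 (also called CCM3) holds the GCKIII kinases on the striatins, and Mob4 binds the striatins. The complex is known for setting the phosphorylation of kinases of the GCKIII and Hippo families, and thereby cell shape, polarity and migration.

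The cells came from the bone fraction of Cxcr4+/+ (WT), Cxcr4+/1013 (+/1013) and Cxcr4 1013/1013 (1013/1013) mice, with no other allele or treatment named. The 1013 allele is a knock-in of a mutation found in WHIM syndrome, and its product is a CXCR4 receptor that responds to its ligand with poor desensitization. It is carried by every cell of the mouse, so stromal and blood cells were mutant together. SSCs (skeletal stromal/stem cells, Sca-1+ PDGFRα+) and the more mature OPCs (osteoblast progenitors, Sca-1-) were both gated as CD45-, TER119-, CD31- and CD51+. Each library was a pool of 3000 cells of 3 mice, described as female littermates of 8 to 12 weeks. There were 3 libraries a group and 2 for 1013/1013 SSCs, 17 in all, and the p-values measure the spread between these pools.

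Ly6a, which encodes Sca-1, lay at 385.6 to 1450 CPM in SSCs and 0.568 to 12.4 CPM in OPCs, and the osteoblast regulator Sp7 at 0.0367 to 34.1 and 169 to 396 CPM. CPM here are counts relative to the library total, scaled by TMM factors over the 17 libraries. OPC libraries held 64099849 to 92683497 counts on genes and SSC libraries 44217695 to 50509592, so cell type and depth cannot be told apart. A count of 3, the limit of detection, stood for 0.0324 to 0.0678 unscaled CPM, for counting error only, and all 8 genes lay above it in every library. Some libraries stood apart. The summed level of 13 leukocyte and erythroid genes was 9477 CPM in OPC WT replicate 3, 11391 in OPC 1013/1013 replicate 2 and 2850 in SSC WT replicate 3, against 43.7 to 1346 CPM in the other libraries. The share of reads on no gene was 3.68% to 4.15% in WT SSCs and 1.5% to 2.69% in mutant SSCs. Genes with a count numbered 21449 to 22599 in WT SSCs and 17808 to 19227 in all but 1 of the mutant SSC libraries, and SSC 1013/1013 replicate 1 had 15748, the fewest of the 17 libraries. It is 1 of only 2 libraries of its group.

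The sequences before the starts of Stk25 and Pdcd10 are shown because these are the genes whose levels differed most clearly, by genotype and by cell type. Both come from RefSeq (GRCm38.p6), run 5′ to 3′ on the gene's own strand and end at the base before the start. The Stk25 window lies inside the gene as annotated for the counts (chr1:93619751-93658659), so its RefSeq start is not the outermost annotated start. Of the 8 genes, 7 had an entry. Capitals mark 3 motifs on either strand: the GC box (GGGCGG), the CCAAT box (spelled as its name) and the element ACTACAA. The TATA box (TATAAA), present in 12.4% of all RefSeq promoters, was in neither window.
Stk25, chr1:93635728-93635977, minus strand: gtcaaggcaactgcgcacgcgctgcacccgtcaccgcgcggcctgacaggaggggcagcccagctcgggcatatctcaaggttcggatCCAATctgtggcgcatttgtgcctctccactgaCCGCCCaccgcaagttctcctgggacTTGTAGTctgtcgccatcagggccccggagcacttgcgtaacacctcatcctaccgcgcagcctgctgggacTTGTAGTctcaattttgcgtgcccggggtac
Pdcd10, chr3:75556853-75557102, minus strand: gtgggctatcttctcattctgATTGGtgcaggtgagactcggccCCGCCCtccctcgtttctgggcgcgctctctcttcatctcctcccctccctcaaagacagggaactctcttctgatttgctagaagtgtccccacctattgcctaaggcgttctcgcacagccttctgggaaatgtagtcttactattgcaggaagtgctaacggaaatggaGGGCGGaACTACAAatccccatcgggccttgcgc

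The Stk25 window held ACTACAA at 2 places, which begin 103 and 31 bases before the start, both on the opposite strand, and the Pdcd10 window at 1 place, 27 bases before it. In the same 250 bases of all 32851 RefSeq promoters, 2.81% held it and 0.158% held it at least 2 times. The other 5 windows did not hold it. The GC box stood in 32.7% of all promoters and the CCAAT box in 33.8%. The ACTACAA letters were chosen after the sequence had been read, among 7 motifs searched, and a match is a description of the sequence, not a bound site.

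Stk25 (ENSMUSG00000026277.14, mm10 chr1:93619751-93658659, minus strand) was the gene with the clearest order of genotypes. In WT OPCs its level was 164, 153 and 149 CPM. In +/1013 OPCs it was 109.5, 97.1 and 116 CPM, and in 1013/1013 OPCs 46.2, 41.8 and 43.7 CPM. The 3 genotypes thus did not overlap, with the +/1013 libraries between, and the means were 155 ± 7.66, 107 ± 9.49 and 43.9 ± 2.25 CPM (SD, n = 3 each). The 1013/1013 to WT difference in log2 was -1.83 (SE 0.14), a 3.55-fold lower level, and the 1013/1013 to +/1013 difference was -1.29 (SE 0.14). No overlap between groups was found for 7.61% of the 16207 genes tested in the first of these comparisons and 7.34% in the second. A fall over all 3 genotypes with no overlap at either step was found for 8 of these genes, 0.0494%, Stk25 among them. All of these counts include the libraries on which Stk25 was selected.

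**Figure D1:**
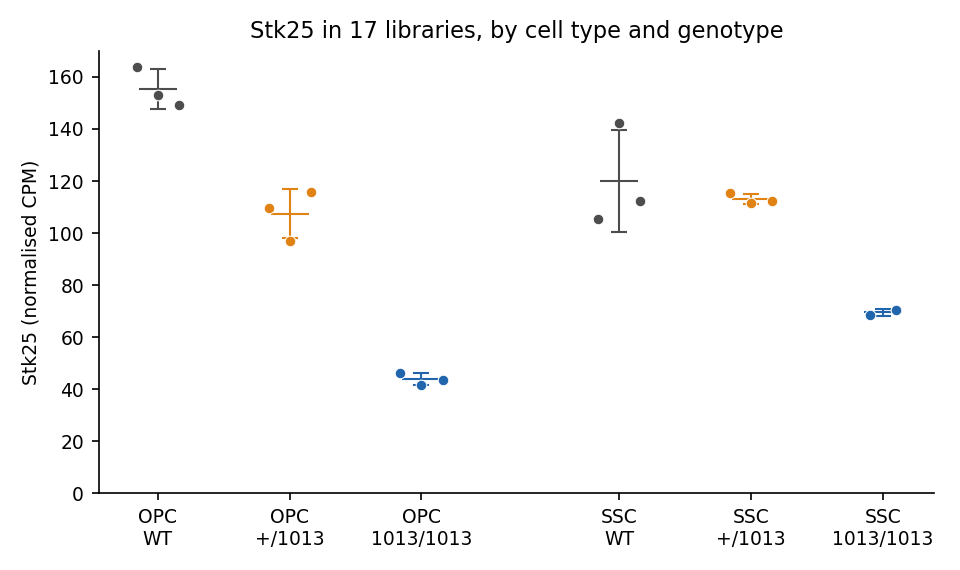
Level of Stk25 in normalised CPM (vertical axis) by cell type and genotype (horizontal axis); each point is 1 library of a pool of 3 mice, and the line and bar are the mean and SD (n = 3, or 2 for 1013/1013 SSCs). The 3 OPC groups do not overlap, and in SSCs both 1013/1013 libraries lie below the other 6. Between 1013/1013 and WT, groups did not overlap for 7.61% of all genes tested in OPCs and 40.7% in SSCs.

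The +/1013 OPC libraries did not choose Stk25, but they are compared with the same WT libraries, so this difference carries no test. In log2 it was -0.54 (SE 0.14, 1.45-fold lower), and -0.60 to -0.47 over the alternatives. The main value is short of the 1.5-fold needed for a call. Calls, here and below, are genes with a Benjamini-Hochberg adjusted p under 0.05 over all genes tested and at least a 1.5-fold difference. Apart from Stk25, which carries no test here, none of the 8 genes was called, against 0% of all genes by edgeR (331 had an unadjusted p under 0.05, and DESeq2 called 68). Of the 8, only Stk25 had groups that did not overlap, as did 5.28% of all genes.

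SSCs offered libraries that had no part in the choice of Stk25. Its level was 105.5, 142 and 112 CPM in WT SSCs, 115, 111.5 and 112 CPM in +/1013 SSCs, and 68.5 and 70.6 CPM in 1013/1013 SSCs. The +/1013 libraries lay within the WT range, and both 1013/1013 libraries lay under all of the other 6. Among the 17659 genes tested, 1013/1013 groups did not overlap WT for 40.7% and did not overlap +/1013 for 15.9%. The 1013/1013 to WT difference in log2 was -0.78 (SE 0.19, 1.71-fold lower), with an unadjusted p of 0.00331 and an adjusted p of 0.13 by edgeR's quasi-likelihood test, so Stk25 was not called. DESeq2 called it, at -0.83 with an adjusted p of 0.00261. The alternatives gave log2 differences of -0.87 to -0.64 with adjusted p from 0.00261 to 0.408 in these 2 tools. The 1013/1013 to +/1013 difference was -0.67 (SE 0.18), with an unadjusted p of 0.00715 and an edgeR adjusted p of 0.788. The +/1013 to WT difference was -0.11 (SE 0.16, edgeR adjusted p 0.821). With 2 libraries against 3, an exact two-sided rank-sum test cannot go below 0.2.

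The share of reads on no gene was 1.53% to 1.80% in +/1013 SSCs, and 2.69% and 1.5% in 1013/1013 SSCs. Leukocyte and erythroid genes summed to 747.7 and 922 CPM in the 1013/1013 SSCs and 432 to 2850 CPM in WT SSCs. The part of either in the Stk25 difference was not tested. Without the 3 libraries rich in these transcripts the log2 difference of Stk25 was -1.82 in 1013/1013 OPCs and -0.81 in 1013/1013 SSCs.

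The genotype effect on Stk25 was set side by side in the 2 cell types. The +/1013 effect was 0.45 (SE 0.20) higher in SSCs than in OPCs on the log2 scale, without a test as it holds the WT OPC libraries. By edgeR, 0.084% of the genes tested (17 of 20238) were called for such a difference, and none of the genes followed with Stk25 was. The 1013/1013 effect was 1.04 (SE 0.22) higher in SSCs, a description only, since it contains the libraries that chose Stk25. Between cell types of the same genotype, Stk25 was lower in WT SSCs than in WT OPCs by a log2 difference of -0.37 (SE 0.14), close to level in +/1013 (0.07, SE 0.14, edgeR adjusted p 0.803) and higher in 1013/1013 SSCs by 0.66 (SE 0.16). The first and last of these also rest on the OPC libraries that chose Stk25 and carry no test.

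Reads on the Stk25 locus cannot all be assigned to one strand. The cDNA kit does not mark strand, and 1371 of the 5812 exonic bases of Stk25, 23.6%, lie in exons annotated on the other strand, in Farp2 and Gm28536. None of the other 7 genes had such bases. Farp2 overlaps the 3′ end of Stk25 and lay at 95.3 to 117 CPM in WT, 73.3 to 110 in +/1013 and 42.2 to 79.4 in 1013/1013 OPCs, a log2 difference of -0.69 (SE 0.27) between 1013/1013 and WT. In SSCs Farp2 was 8.82 to 16.4 CPM in all groups, and its 1013/1013 to WT difference was 0.18 (SE 0.36, and -0.20 without 1013/1013 replicate 2), whereas that of Stk25 was -0.78. The share of Stk25 counts that came from Farp2 transcripts was not tested.

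The other 9 neighbors were the nearest protein-coding genes of the annotation, from Ppp1r7, 246 kb on one side, to Ing5, 145 kb on the other. In 1013/1013 OPCs their log2 differences from WT ran from -0.40 (Bok, a BCL2 family protein, SE 0.39) to 1.42 (Sept2, a septin, SE 0.96). Both Ppp1r7, a regulator of protein phosphatase 1, which was lower (-0.22, SE 0.19), and Sept2, at only 0.506 to 1.11 CPM against 0.244 to 0.293 CPM in WT, had groups that did not overlap. So did Farp2, and 7.61% of all genes. None of the 9 came within 1 of Stk25's difference. In 1013/1013 SSCs Ano7 and Hdlbp were lower and Sept2 and Dtymk higher than WT without overlap, beside 40.7% of all genes. Ppp1r7 and Dtymk were higher without overlap in +/1013 SSCs, beside 31.2%, and Thap4 lower in +/1013 OPCs, beside 5.28%. In the tested comparisons of both mutant genotypes in SSCs and of +/1013 in OPCs, none of the 10 neighbors was called by edgeR. Of all genes, 0.0736% were called in +/1013 SSCs and 0% in the others. Cxcr4 itself, the gene that carries the mutation, is on the same chromosome, 34.9 Mb from Stk25, and Mob4 is 38.5 Mb away on the other side. Cxcr4 lay at 6.32 to 15.2 CPM in WT, 4.47 to 19.4 in +/1013 and 4.55 to 18.5 in 1013/1013 OPCs, and those ranges overlapped.

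**Figure D2:**
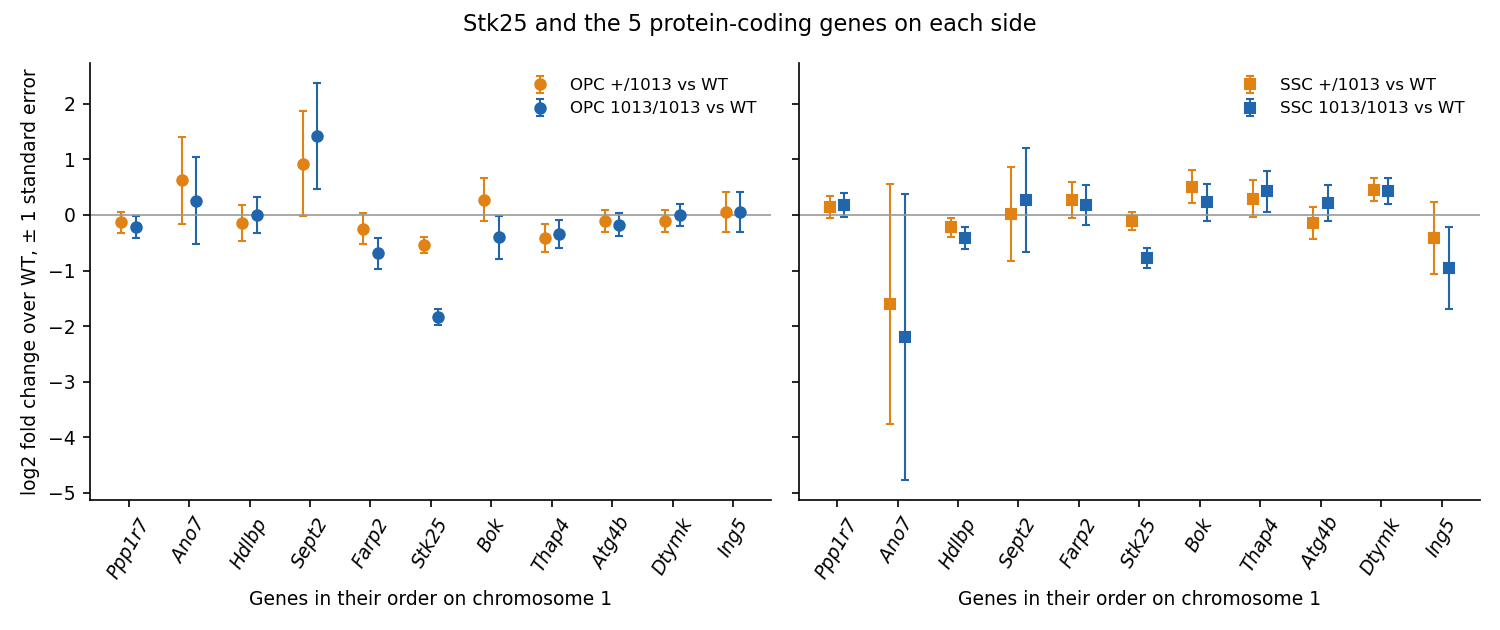
Log2 fold change over WT with 1 standard error (vertical axis) of Stk25 and the 5 protein-coding genes on each side in their order on chromosome 1 (horizontal axis), for OPCs (left) and SSCs (right). In OPCs the 1013/1013 value of Stk25, -1.83, lies under those of all 10 neighbors, the lowest of which is -0.69 for Farp2.

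The other GCKIII kinases did not share this order of genotypes. Stk26, also called MST4, which acts in cell polarity and migration, was 43.7, 91.7 and 34.8 CPM in WT OPCs, 35.8, 68.4 and 88.9 CPM in +/1013 OPCs, and 160, 73.3 and 138 CPM in 1013/1013 OPCs. The 1013/1013 libraries reached higher, but the lowest of them lay under the highest WT library. The log2 difference was 1.12 (SE 0.48), given without a test as the comparison is the one on which Stk25 was selected. In SSCs Stk26 was 24.4, 11.8 and 39.6 CPM in WT, 13.7, 26.1 and 11.2 CPM in +/1013, and 7.15 and 24.1 CPM in 1013/1013. These groups overlapped, and the 1013/1013 to WT difference was -0.71 (SE 0.68, edgeR adjusted p 0.584), which became -0.10 without 1013/1013 replicate 1 and -1.86 without replicate 2.

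Stk24, also called MST3, was the lowest of the kinases. It stayed between 2.86 and 7.60 CPM in all 17 libraries. In +/1013 SSCs it lay at 2.86 to 3.44 CPM, under the 4.70 to 6.36 CPM of WT SSCs, with a log2 difference of -0.86 (SE 0.47, edgeR adjusted p 0.399). In 1013/1013 SSCs, at 3.01 and 5.64 CPM, it overlapped WT.

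To compare levels between the kinases, CPM were divided by exonic length in kb. In WT OPCs Stk25 made up 58.6% to 76.6% of the summed GCKIII level per kb, Stk26 19.7% to 38.7% and Stk24 1.55% to 3.71%. In 1013/1013 OPCs the order of Stk25 and Stk26 was the reverse: Stk25 made up 20.1% to 31.9% and Stk26 61.8% to 76.6%, in all 3 libraries. These shares use the Stk25 values on which it was selected, so a low Stk25 share there follows from that choice and is a description only. The summed level per kb was 38.5 ± 5.88 in WT OPCs and 32.3 ± 8.77 in 1013/1013 OPCs (SD, n = 3 each), and those values overlapped. In SSCs Stk25 was the main kinase in every library, at 68.4% to 88.7% of the sum. There the sum itself was 26.5 ± 2.18 CPM per kb in WT (n = 3) and 15.7 ± 2.86 in 1013/1013 (SD, n = 2), without overlap.

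**Figure D3:**
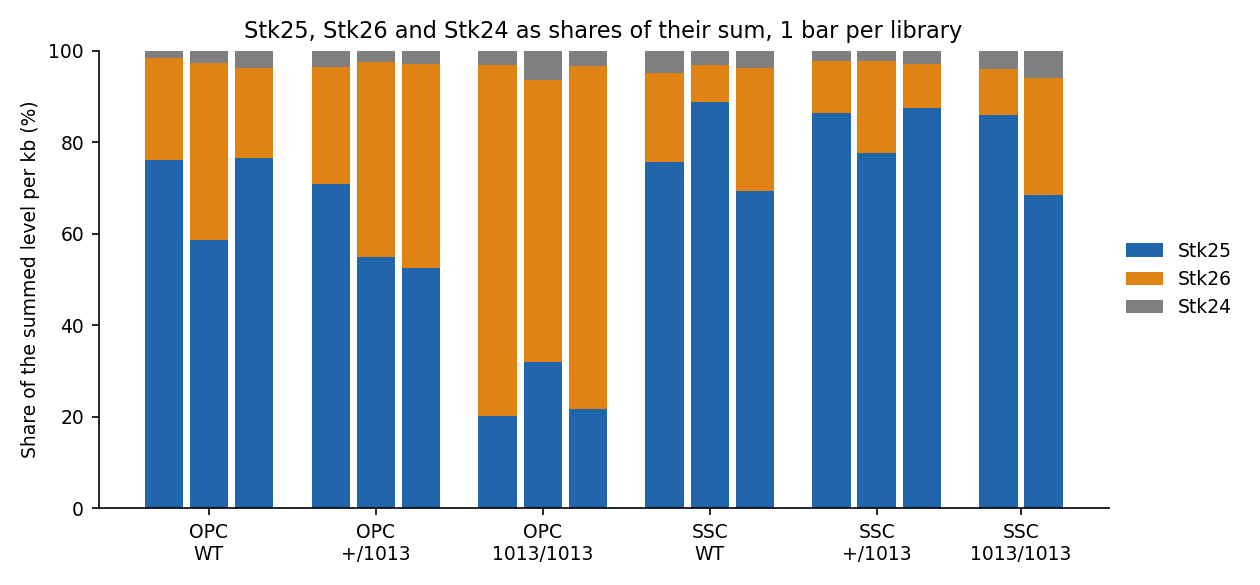
Share of Stk25, Stk26 and Stk24 in the sum of their levels per kb of exon (vertical axis, in %), with 1 bar for each of the 17 libraries grouped by cell type and genotype. Stk25 takes 20.1% to 31.9% of each 1013/1013 OPC bar and at least 52.6% of every other bar. The 1013/1013 OPC bars are the libraries on which Stk25 was selected for its low level.

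Pdcd10, the adaptor that stabilizes the GCKIII kinases, differed between the cell types. It was 7.05, 8.14 and 9.50 CPM in WT OPCs and 20.9, 12.9 and 15.4 CPM in WT SSCs. In +/1013 it was 8.10, 9.44 and 9.20 CPM in OPCs and 24.8, 35.8 and 18.04 CPM in SSCs. In 1013/1013 it was 9.83, 9.45 and 8.71 CPM in OPCs and 27.5 and 33.2 CPM in SSCs. All 8 SSC libraries lay above all 9 OPC libraries, while the 3 OPC genotypes overlapped. Pdcd10 was higher in SSCs by a log2 difference of 1.00 in WT (SE 0.27, edgeR adjusted p 0.0305), 1.56 in +/1013 (SE 0.28, edgeR adjusted p 0.00222) and 1.70 in 1013/1013 (SE 0.30, edgeR adjusted p 0.00231), and was called each time. The WT call ended without any 1 of 4 libraries (OPC WT replicates 1 and 2, SSC WT replicates 1 and 3; adjusted p 0.0577 to 0.13), under the replicate block (0.0502), without the filter on low counts (0.0763), with only the groups compared (0.067) and without the 3 leukocyte-rich libraries (0.0948). The 1013/1013 call ended with only the groups compared (0.0542), and the +/1013 call held under all alternatives, with adjusted p from 2.94e-07 to 0.016.

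Stk26 was on the opposite side, lower in SSCs by -1.17 in WT (SE 0.57, edgeR adjusted p 0.21), -1.92 in +/1013 (SE 0.59, edgeR adjusted p 0.0463) and -2.99 in 1013/1013 (SE 0.72, edgeR adjusted p 0.0153). It was called in both mutant genotypes and not in WT, and the difference of its +/1013 effect between the cell types was not called (-0.75, SE 0.80, edgeR adjusted p 0.829). The +/1013 call ended without any 1 of 4 libraries (OPC +/1013 replicates 2 and 3, SSC +/1013 replicates 1 and 3; adjusted p 0.0974 to 0.147) under the replicate block (0.0632) and without the filter on low counts (0.0547), and the 1013/1013 call ended without SSC 1013/1013 replicate 1 (0.149) and with only the groups compared (0.0876). Between cell types edgeR called 1 of the 7 genes other than Stk25 in WT (11.4% of all genes), 2 of all 8 in +/1013 (12.5%) and 2 of the 7 in 1013/1013 (13.1%). The 5 endothelial genes checked summed to 20.9 to 107.7 CPM in SSCs and 1.97 to 33.0 CPM in OPCs, and the 4 muscle genes to 2.66 to 120 and 28.5 to 391.5 CPM. The part of these cells in the differences between SSCs and OPCs was not tested.

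Between genotypes of SSCs, Pdcd10 was 18.04 to 35.8 CPM in +/1013 and 27.5 and 33.2 CPM in 1013/1013 against 12.9 to 20.9 CPM in WT. The 1013/1013 libraries lay above WT, with a log2 difference of 0.90 (SE 0.34), an unadjusted p of 0.031 and an edgeR adjusted p of 0.233. The +/1013 libraries overlapped WT (0.66, SE 0.31, edgeR adjusted p 0.326).

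The striatins lay at 3 separate levels. Strn3 was the most abundant, at 13.3 to 21.4 CPM per kb over the 17 libraries, Strn4 followed at 4.38 to 11.8 and Strn was lowest at 0.441 to 2.22 CPM per kb. In CPM, Strn3 was 94.2 to 116 in WT, 99.0 to 142 in +/1013 and 88.3 to 125 in 1013/1013 OPCs. In 1013/1013 OPCs its log2 difference from WT was 0.0024 (SE 0.20), and that of Strn4 was 0.05 (SE 0.18). Strn spread widely within groups, from 6.80 to 16.0 CPM in WT and 8.95 to 19.7 CPM in 1013/1013 OPCs, a log2 difference of 0.31 (SE 0.50). The alternatives for these 3 values in 1013/1013 OPCs lay on both sides of 0, from -0.12 to 0.11 for Strn3, -0.05 to 0.14 for Strn4 and -0.24 to 0.60 for Strn.

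In SSCs, Strn was 12.1 to 16.9 CPM in WT, 6.30 to 10.6 CPM in +/1013, and 3.904 and 10.8 CPM in 1013/1013. No mutant library reached the WT range, and the log2 differences were -0.68 (SE 0.44, edgeR adjusted p 0.487) and -0.98 (SE 0.51, edgeR adjusted p 0.334). Only without 1013/1013 replicate 2 was Strn called, at -1.91 with an edgeR adjusted p of 0.0455. Strn3 was 129 and 133 CPM in 1013/1013 SSCs and 91.1 to 120 CPM in WT SSCs, a log2 difference of 0.31 (SE 0.17, edgeR adjusted p 0.35). Strn4, at 34.9 and 62.3 CPM in 1013/1013 and 61.6 to 78.9 CPM in WT SSCs, overlapped between genotypes (-0.47, SE 0.34, edgeR adjusted p 0.468).

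Mob4, which binds the striatins, was 23.2 to 31.0 CPM over all OPC libraries. In SSCs it was 34.1, 25.3 and 28.5 CPM in WT, 33.0, 80.9 and 32.9 CPM in +/1013, and 41.3 and 57.8 CPM in 1013/1013. One +/1013 library stood far above its group, and the 1013/1013 libraries lay above WT (0.76, SE 0.41, edgeR adjusted p 0.348). Between 1013/1013 SSCs and OPCs Mob4 differed by 0.94 (SE 0.33, edgeR adjusted p 0.0783), which DESeq2 called (0.91, adjusted p 0.0429).

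**Figure D4:**
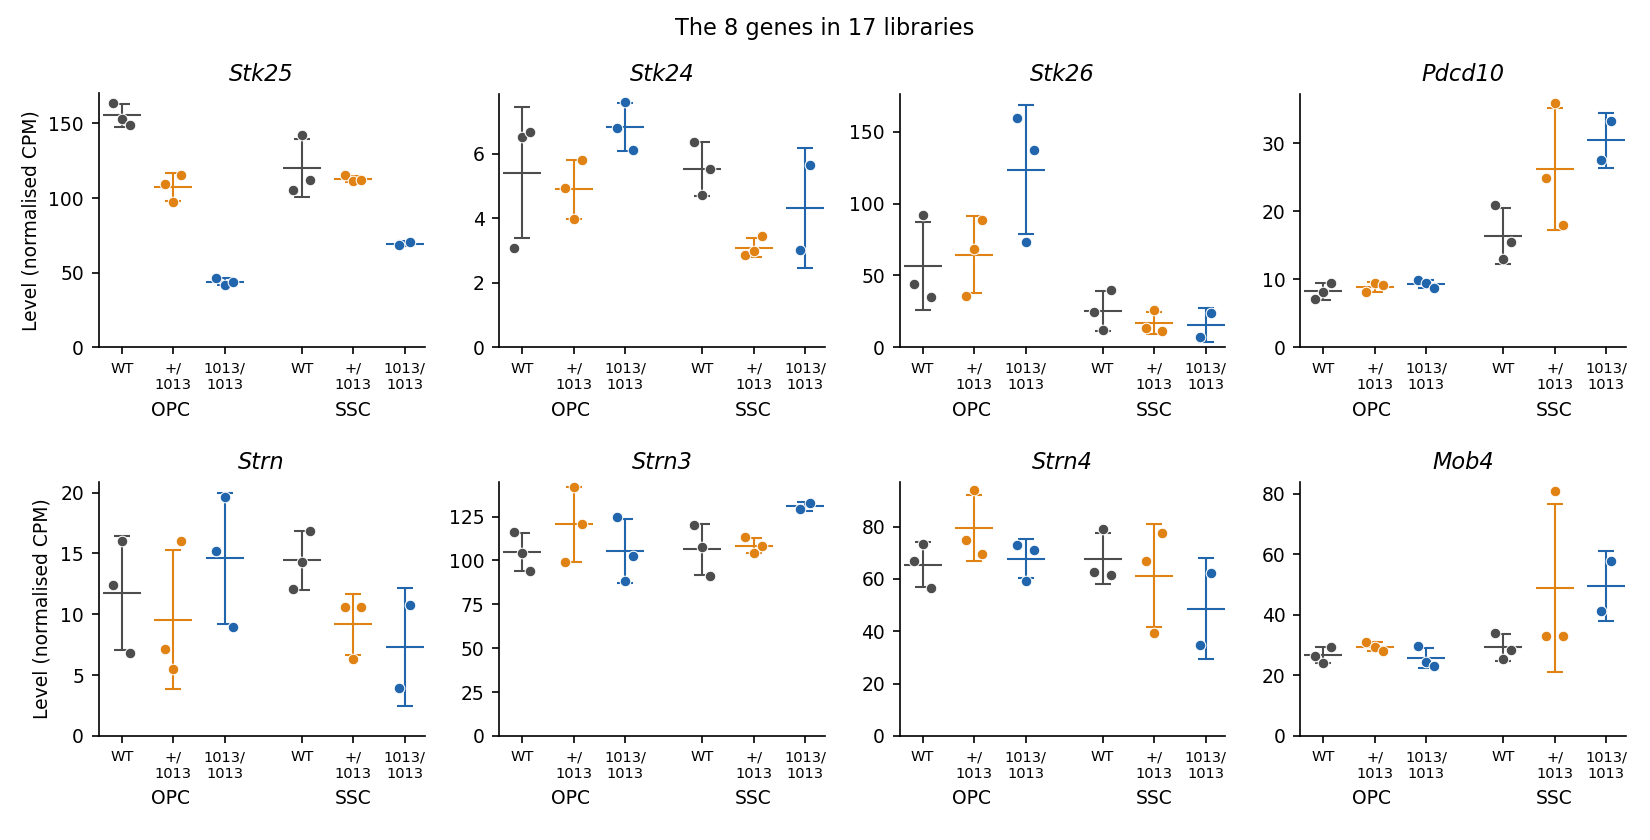
Level in normalised CPM (vertical axes, each from 0 on its own scale) of the 8 genes by cell type and genotype (horizontal axes); points are libraries, and lines and bars are means and SD. Stk25 separates the OPC genotypes, Pdcd10 separates the cell types, and Strn3 stays between 88.3 and 142 CPM throughout.

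Counted over the 8 genes, no call was made between genotypes of SSCs by edgeR. In +/1013 against WT, 2 of the 8 (Stk24 and Strn) did not overlap, against 31.2% of 17659 genes, and 0.0736% of all genes were called. In 1013/1013 against WT, 5 of the 8 did not overlap: Stk25 and Strn were lower, and Pdcd10, Strn3 and Mob4 higher. The same was true of 40.7% of all genes, so this count is not far from that of genes at large, and 0% were called (3224 had an unadjusted p under 0.05, and DESeq2 called 1850). In 1013/1013 against +/1013, Stk25 was lower and Strn3 higher without overlap, as were 15.9% of all genes in 1 direction or the other, and 0% were called (977 had an unadjusted p under 0.05, and DESeq2 called 243). The median log2 difference of the 8 genes in 1013/1013 SSCs was -0.41, and that of all genes -0.23. In 1013/1013 OPCs the medians were 0.11 and 0.01, and 6 of the 8 values were above 0.

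**Figure D5:**
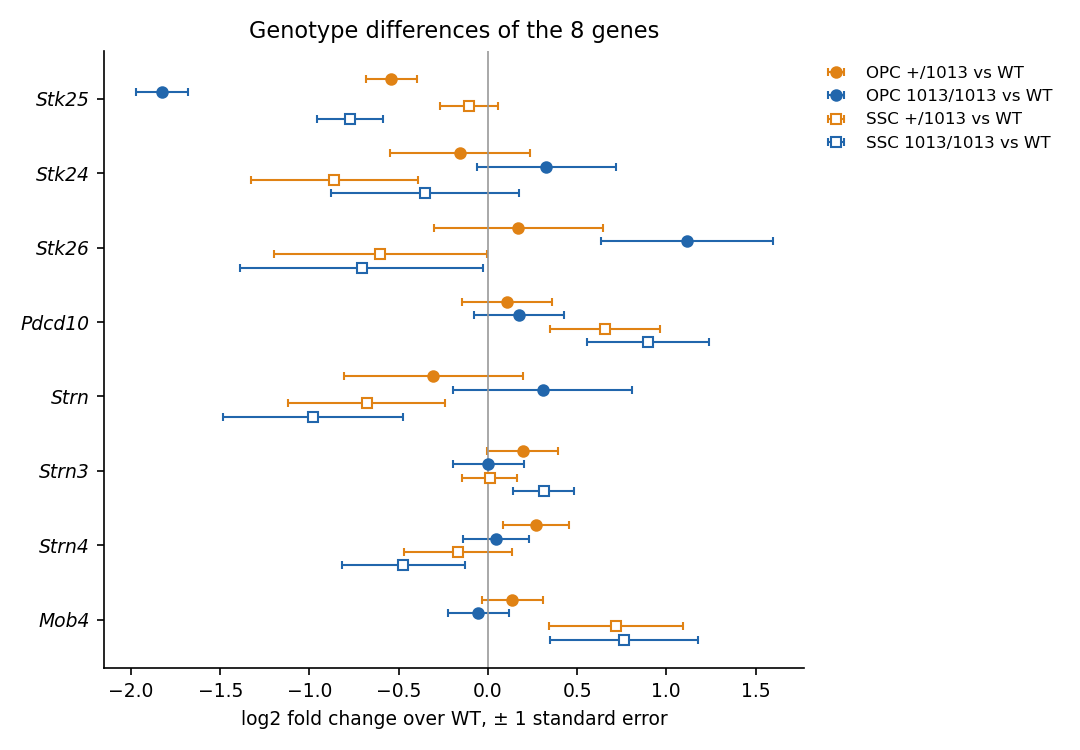
Log2 fold change over WT with 1 standard error (horizontal axis) of the 8 genes (vertical axis) in +/1013 (orange) and 1013/1013 (blue) OPCs (filled circles) and SSCs (open squares). Stk25 has the lowest 1013/1013 value in OPCs, -1.83, and the 1013/1013 values of the other 7 genes there lie between -0.05 and 1.12.

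The rest of the complex was read from 18 further genes: 4 subunits of protein phosphatase 2A, 8 other STRIPAK proteins, 3 partners of Pdcd10 in the cerebral cavernous malformation (CCM) pathway and 3 partners of the GCKIII kinases. None was called between genotypes in the tested comparisons, by edgeR. The same test called 0.0736% of all genes in +/1013 against WT SSCs and 0% in the others. Of the 17 with enough counts in OPCs, 7 were lower and 10 higher in +/1013 than in WT, with a median log2 difference of 0.07, and all genes had -0.0042. In 1013/1013 SSCs, 10 of 18 were lower and 8 higher than in WT, with a median of -0.07, and all genes had -0.23.

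Of the 17 listed genes of the complex with enough counts in OPCs, 1 had separate groups in 1013/1013 and WT OPCs, beside 7.61% of all genes. This gene was Cab39, or MO25, a scaffold that activates GCKIII kinases and LKB1. It was 106 to 141 CPM in 1013/1013 OPCs and 76.8 to 97.6 CPM in WT OPCs, a log2 difference of 0.51 (SE 0.22), again without a test. In SSCs Cab39 was 47.1 and 114 CPM in 1013/1013 and 83.6 to 118 CPM in WT, and these overlapped. Ppp2r1a, the scaffold subunit of protein phosphatase 2A, was 171 to 202 CPM in WT SSCs, 259 to 306 CPM in +/1013 SSCs, and 254 and 258 CPM in 1013/1013 SSCs. Both mutant genotypes lay above WT, by 0.53 (SE 0.16, edgeR adjusted p 0.182) and 0.46 (SE 0.18, edgeR adjusted p 0.235). Slmap, a membrane anchor of the complex that also binds Hippo kinases, was 19.3 to 26.8 CPM in +/1013 and 37.0 to 43.2 CPM in WT SSCs (-0.82, SE 0.23, edgeR adjusted p 0.166), and DESeq2 called it (-0.88, adjusted p 0.022).

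Other listed genes of the complex had mutant and WT groups that did not overlap, none of them called by edgeR. In +/1013 SSCs these were Ppp2cb (-0.45), Cttnbp2 (-2.36), Fgfr1op2 (0.27) and Cab39l (0.68). In 1013/1013 SSCs Ppp2cb (0.30), Fgfr1op2 (0.38) and Ccm2 (0.38) were higher, and Cttnbp2nl (-1.16), Krit1 (-0.54) and Golga2 (-0.66) were lower. Cttnbp2nl was 1.26 CPM in 1013/1013 replicate 1 and 17.2 CPM in replicate 2, against 17.9 to 22.4 CPM in WT, and edgeR called it only without replicate 2 (adjusted p 0.00208). Strip2 had 0 counts in both 1013/1013 libraries and 0.0316 to 1.56 CPM in WT, where the lowest library lay under the limit of detection, so no fold is given, and DESeq2 called it (adjusted p 0.0243). With Ppp2r1a and Slmap these made 6 of 18 genes in +/1013 SSCs, beside 31.2% of all genes, and with Ppp2r1a 8 of 18 in 1013/1013 SSCs, beside 40.7%. Between 1013/1013 and +/1013 SSCs, 8 of 18 did not overlap, beside 15.9% of all genes. Of these 18, 4 had an unadjusted p under 0.05 by edgeR and 0 were called. Between 1013/1013 and +/1013 OPCs, without a test, 3 of 17 did not overlap, beside 7.34%.

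Between the cell types, 4 of these 18 genes were called in WT, beside 11.4% of all genes. Ppp2r1a was lower in SSCs (-0.85, SE 0.16, edgeR adjusted p 0.00469), as was Ppp2cb, a catalytic subunit of the phosphatase (-1.20, SE 0.21, edgeR adjusted p 0.00301). Slmap was higher (0.68, SE 0.20, edgeR adjusted p 0.0454), as was Heg1, the CCM pathway's transmembrane receptor (1.92, SE 0.45, edgeR adjusted p 0.0146). Ppp2cb and Heg1 were called the same way in all 3 genotypes. In WT, the calls of Ppp2r1a and Ppp2cb held under every alternative, that of Heg1 ended without OPC WT replicate 2 (0.0637) or 3 (0.0521), and that of Slmap ended without any 1 of the 6 libraries (0.0732 to 0.121) and without the 3 leukocyte-rich libraries (0.243), among others. The Ppp2cb call held under every alternative in +/1013. In 1013/1013 it ended without OPC replicate 2 (edgeR adjusted p 0.101) or 3 (0.0556) and without the filter on low counts (0.0691). It also ended under the replicate block (0.0569), with only the groups compared (0.118) and without the 3 leukocyte-rich libraries (0.103). Its 1013/1013 difference was -0.93 without SSC replicate 1 and -0.77 without SSC replicate 2. With 1 SSC library left in the group, neither fit shows that the call held. The Heg1 call ended in +/1013 without OPC replicate 2 or 3 or SSC replicate 3 (0.0556 to 0.0817). In 1013/1013 it ended with only the groups compared (0.154). The difference was 1.37 without SSC 1013/1013 replicate 1, a fit with 1 SSC library in the group, which does not show that the call held. SSC 1013/1013 replicate 1 had the highest level of Heg1 (136 CPM) and the highest endothelial sum (107.7 CPM) of the 17. SSC +/1013 replicate 1 had a sum of 106.5 CPM and Heg1 at 70.6 CPM. The part of endothelial cells in the Heg1 difference was not tested. In +/1013, Krit1, which binds Ccm2 and Heg1, was also higher in SSCs (1.11, SE 0.32, edgeR adjusted p 0.037), and Traf3ip3, a leukocyte-rich STRIPAK protein, was lower (-5.58, SE 1.64, edgeR adjusted p 0.0394), at 0 to 0.788 CPM in +/1013 SSCs and 7.18 to 24.1 CPM in +/1013 OPCs. Both calls ended without any 1 of the 3 +/1013 OPC libraries. The leukocyte and erythroid genes summed to 148 to 297 CPM in the former and 166 to 897 CPM in the latter, and their part in the Traf3ip3 difference was not tested.

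Of 20 genes outside the complex (other germinal center kinases, Hippo kinases and targets of the Hippo effector YAP), 19 had enough counts and none was called between genotypes in the tested comparisons by edgeR. Beside them, 0.0736% of all genes were called in +/1013 against WT SSCs and 0% in the others. The log2 differences of the 6 YAP targets between 1013/1013 and WT SSCs were below 0, with a median of -0.52, and that of all genes was -0.23. The 2 libraries of 1013/1013 SSCs disagreed: Ccn1 was 324 and 1506 CPM against 896 to 1334 CPM in WT, and Ccn2 was 326 and 1485 CPM against 770 to 1382 CPM, so that both differences were above 0 without replicate 1 (0.46 and 0.47). Amotl2 had the only groups among them that did not overlap (-0.9999, SE 0.39, edgeR adjusted p 0.241). The kinase Stk4, or MST1, was lower without overlap in +/1013 SSCs (-1.48, SE 0.57, edgeR adjusted p 0.251) and in 1013/1013 SSCs (-1.30, SE 0.65, edgeR adjusted p 0.323). It was 18.7, 19.6 and 70.7 CPM in WT SSCs, and without the last of these libraries, which is rich in leukocyte transcripts, the differences were -0.53 and -0.35. Mink1, a germinal center kinase, was 7.77 to 10.2 CPM in WT, 1.23 to 4.24 CPM in +/1013, and 2.71 and 1.55 CPM in 1013/1013 SSCs. Its log2 differences were -1.93 (SE 0.64, edgeR adjusted p 0.202) and -2.01 (SE 0.74, edgeR adjusted p 0.227), and DESeq2 called both (adjusted p 0.0128 and 0.0225). Groups did not overlap either for Lats2 (-0.76) and Tnik (-1.88) in +/1013 SSCs and for Stk39 (0.76) in 1013/1013 SSCs. Lats2 and Tnik with Stk4 and Mink1 made 4 of 19 genes in +/1013 SSCs, beside 31.2% of all genes. Stk39 with Amotl2, Stk4 and Mink1 made 4 of 19 in 1013/1013 SSCs, beside 40.7%. Between the cell types, the kinase Stk38l and the YAP target Axl were higher in SSCs in all 3 genotypes, and in WT by 2.36 (SE 0.49, edgeR adjusted p 0.00719) and 2.49 (SE 0.48, edgeR adjusted p 0.00448). The kinase Stk38 was called in +/1013 (1.13, SE 0.26, edgeR adjusted p 0.0124), a call that ended without SSC +/1013 replicate 1 (0.054), and not in WT (0.82, edgeR adjusted p 0.0573, 0.0397 by DESeq2) or 1013/1013 (0.81, edgeR adjusted p 0.0799). The Axl calls held under every alternative. The WT call of Stk38l ended without the 3 leukocyte-rich libraries (0.0902), and those in the mutants each ended without any 1 of the 3 OPC libraries. The 1013/1013 difference of Stk38l was 0.45 without SSC 1013/1013 replicate 2. That fit has 1 SSC library in the group and does not show that the call held.

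Genes with a pattern most like that of Stk25 over the 17 libraries were ranked by the root mean square difference of centered log2 CPM, among the 10036 other genes that averaged 5 CPM or more. The closest were Naif1 (0.41), Trove2, an RNA-binding protein (0.43), Vti1a, a SNARE of vesicle fusion (0.45), Hars2, a mitochondrial tRNA synthetase (0.46), and Trim26, a ubiquitin ligase (0.48). The same measure for a gene without any variation would be 0.61, so the likeness was partial. Hars2, for example, was 41.1 ± 8.74 CPM in WT, 29.0 ± 1.64 in +/1013 and 22.7 ± 1.45 in 1013/1013 OPCs (SD, n = 3 each), without overlap. In SSCs it was 24.0 ± 1.96 CPM in WT (n = 3) and 22.1 ± 6.11 CPM in 1013/1013 (SD, n = 2), and these overlapped. This ranking used the libraries on which Stk25 was selected.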

How the data were processed

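The deposited files hold whole-number counts per gene, 1 file a library, which the authors made before any normalization. Total RNA was copied with the SMART-Seq v4 kit, libraries were built by Nextera XT tagmentation without marking strand, and reads were aligned to mm10 with STAR and counted with HTSeq. Versions, the annotation release and the HTSeq settings are not given in the sources used here. All 17 libraries were used, and no 2 files held the same values.

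Identifiers were matched to GENCODE M21 without version (55154 of 55335). Each cell type, or all 17 libraries for comparisons between cell types, entered an edgeR 4.0.16 quasi-likelihood fit (legacy = TRUE) in R 4.3.3 after filterByExpr and TMM, without covariates, and p-values were adjusted over all genes tested. The standard error is the absolute log2 fold change over the square root of F. Values by library are CPM with TMM factors over 17 libraries, and log2 CPM used a prior count of 2. Alternatives were DESeq2 1.42.0, legacy = FALSE, DESeq2 size factors, no filter on low counts, only the groups compared, a replicate block, no fold threshold and each library left out. The fit without 3 libraries rich in leukocyte transcripts was added after seeing the data. The main edgeR fit and the DESeq2 fit within each cell type were tested on simulated data. The fit of all 17 libraries and the other alternatives were not.

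The 8 genes, the lists and these tests were chosen with earlier results of these data known. The named genes are the 8, listed genes that were called between cell types, or whose mutant and WT groups did not overlap, the 5 protein-coding genes on each side of Stk25 and the 5 genes most like it. The values of 1 listed gene are not reported here.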

Additional observations from a re-analysis of the deposited data

Results flagged for a closer look

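Stk26 lay on opposite sides of WT in the 2 cell types of 1013/1013 mice: all 3 OPC libraries (73.3 to 160 CPM) lay above the WT OPC mean of 56.7 CPM, and both SSC libraries (7.15 and 24.1 CPM) lay under the WT SSC mean of 25.3 CPM. The 1013/1013 effect in SSCs minus that in OPCs was -1.82 (SE 0.87) on the log2 scale, -1.19 without SSC 1013/1013 replicate 1 and -2.92 without replicate 2. Its SSC part, -0.71, was -0.10 and -1.86 without these libraries. The difference was not tested, because it contains the comparison of 1013/1013 and WT OPCs on which Stk25 was selected. In both cell types the 1013/1013 range overlapped that of WT.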

How the results depend on the processing

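The log2 difference of Stk25 between 1013/1013 and WT OPCs stayed between -1.86 and -1.79 over 13 alternatives. No member was called between +/1013 and WT in OPCs, where Stk25 carries no test, or in SSCs under any alternative run. The 1013/1013 OPCs were not tested. In 1013/1013 against WT SSCs, DESeq2 called 1 member (Stk25) and leaving out each library gave 0 to 1 (Strn). Between cell types, calls fell from 1 to 0 in WT without the filter on low counts, under the replicate block, with only the groups compared and without the 3 leukocyte-rich libraries, and from 2 to 1 in +/1013 without the filter and under the replicate block. In 1013/1013 they fell from 2 to 0 with only the groups compared. Leaving out each library gave 0 to 1 in WT, 1 to 2 in +/1013 and 1 to 2 in 1013/1013. Stk25 is left out of these counts in WT and 1013/1013, where it carries no test. The cause was not tested.

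Leaving out 1 library turned the sign of 5 tested log2 differences, none of them called: Stk25 in +/1013 against WT SSCs (-0.20 to 0.024, turned without SSC WT replicate 2), Stk25 between +/1013 SSCs and OPCs (-0.0087 to 0.13, without OPC +/1013 replicate 2), and in 1013/1013 against WT SSCs Farp2 (-0.20 to 0.44, without SSC 1013/1013 replicate 2), Ccn1 (-1.76 to 0.46) and Ccn2 (-1.72 to 0.47, both without SSC 1013/1013 replicate 1). Of the untested differences between 1013/1013 and WT OPCs, those of Strn, Strn3, Strn4, Mob4 (-0.15 to 0.06) and Bok (-0.59 to 0.08) also crossed 0. DESeq2 called more genes than edgeR: 68 against 0 in +/1013 OPCs, 1396 against 13 and 1850 against 0 in +/1013 and 1013/1013 SSCs, 243 against 0 between the mutant SSCs, 4052 against 2308, 4496 against 2521 and 4932 against 2642 between cell types in WT, +/1013 and 1013/1013, and 512 against 17 for the +/1013 effect. No label says that replicate numbers pair the pools. Deviations of same-numbered libraries correlated at -0.231 to 0.274 over genes in OPCs (9 pairs) and -0.0774 to 0.099 in SSCs (7 pairs). For libraries with different numbers the ranges were -0.304 to 0.344 in OPCs and -0.099 to 0.115 in SSCs. With so few pairs these ranges cannot exclude pairing. The block took the calls from 13 to 0 in +/1013 SSCs and from 17 to 0 for the +/1013 effect. Depth limits levels under 0.0324 to 0.0678 CPM, which 3 counts stand for.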
